A study of Mus musculus with 21 samples.

Results

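The genes described here are 35 of the 20900 genes in the deposited expression table. They are Atf4 itself, transcription factors that act with it or after it, its target genes and 12 cytosolic tRNA synthetases, chosen by name from a list of 35 symbols. The table held every one of the 35. By role they were 6 transcription factors, 4 feedback and stress effectors, 9 enzymes of amino acid and one-carbon synthesis, 4 amino acid transporters and 12 tRNA synthetases.

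These genes are the classical transcriptional output of the integrated stress response. In that response a kinase that senses missing amino acids, misfolded protein in the endoplasmic reticulum, double-stranded RNA or haem shortage phosphorylates the initiation factor eIF2, which slows most translation but favours translation of the Atf4 mRNA. The ATF4 protein then binds C/EBP-ATF response elements, often with a C/EBP partner, and drives genes for amino acid synthesis, amino acid uptake and tRNA charging. ATF4 is controlled to a large extent at translation, and these libraries measure mRNA only.

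The cells were E14 mouse embryonic stem cells of strain 129, grown with serum and leukaemia inhibitory factor. The medium was changed for one with BMH-21 or CX-5461, each at 1 µM. Both compounds block RNA polymerase I, which makes the precursor of ribosomal RNA. Poly(A) RNA was sequenced at 0 h, the control, and 2, 4 or 8 h into either treatment, giving 7 groups of 3 replicates. The 0 h libraries are the only control and serve both inhibitors, so time in fresh medium without an inhibitor was not measured and cannot be told apart from the inhibitor. The labels do not say whether replicates were separate cultures, so p-values measure the spread between these samples only.

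Values are the deposited log2 expression levels, in which 1 unit is a 2-fold difference and which are not divided by gene length. Each library carries a scaling factor in these values, from 0.832 to 1.375. A shift common to many genes can come from that factor, so counts over the set and many single values are also given after centring every library on its median over the genes tested ("after centring"). Centring took -0.08, -0.15 and -0.21 off the log2 differences from control at 2, 4 and 8 h of BMH-21. For CX-5461 it took off -0.15, -0.16 and 0.22. The shift is the same for every gene of a comparison, so falls at 8 h of CX-5461 are larger after centring and the other falls against control smaller. A gene is said to have risen or fallen where the adjusted p of limma over all 14666 genes tested was under 0.05. The other 6234 genes did not exceed a log2 value of 0 in 3 libraries. All 35 genes of the set were among those tested.

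Libraries held 46604397 to 62812641 reads over the table. Embryonic stem cell markers (8 of 8 above the filter) had a summed log2 level of 12.5 to 12.7 in controls, 11.5 to 11.6 at 8 h of BMH-21 and 12.4 to 12.5 at 8 h of CX-5461. Of 8 fibroblast markers 4 were above the filter, and Lum had at most 2 reads in any library. Their summed level was 5.08 to 5.25 in controls, 5.54 to 5.82 at 4 h and 5.40 to 5.65 at 8 h of BMH-21, and 5.64 at 8 h of CX-5461, above every control in these 3 groups. At 8 h Col1a1, a collagen gene, was 1.86 higher with BMH-21 and 1.24 higher with CX-5461, while Thy1 was 1.41 lower with BMH-21. Of 6 primitive endoderm markers 5 were above the filter, at 3.96 to 4.25 in controls, 3.40 to 3.71 at 8 h of BMH-21 and 4.18 to 4.22 at 8 h of CX-5461. The part of these marker levels in the results was not tested. In bulk RNA, fewer cells of a type and less RNA per cell cannot be told apart.

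To show which of the 35 genes carry the DNA element bound by ATF4 close to their start, promoters were searched for TGATGNAA, the core of the C/EBP-ATF response element, on both strands. The window ran from 250 bases before to 50 bases after the start in RefSeq's annotation of GRCm38.p6. Of the 35 genes 29 had an entry, and Slc7a3, Slc7a5, Wars, Nars, Cars and Lars had none in the table used. A match was found in 10 of the 29 (34.5%), against 4.51% of all 27025 genes and 3.97% of all 32851 promoters in the table. The set was chosen by name around ATF4 and its targets, so an excess over all genes is not an independent result. A match is a description of the letters, not evidence of binding. The matches read as follows in the direction of the gene, 5′ to 3′, with the element in capitals (TTNCATCA where it lies on the opposite strand) and 11 bases on each side. They are shown for 9 of the 10 genes.
Nupr1, chr7:126625562-126625591, minus strand: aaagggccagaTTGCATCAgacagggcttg
Trib3, chr2:152344028-152344057, minus strand: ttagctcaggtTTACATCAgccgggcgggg
Chac1, chr2:119351038-119351067, plus strand: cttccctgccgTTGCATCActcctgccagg
Asns, chr6:7693214-7693243, minus strand: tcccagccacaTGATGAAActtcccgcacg
Pycr1, chr11:120643833-120643862, minus strand: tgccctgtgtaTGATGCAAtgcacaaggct
Gars, chr6:55037960-55037989, plus strand: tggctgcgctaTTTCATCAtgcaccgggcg
Iars, chr13:49682126-49682155, plus strand: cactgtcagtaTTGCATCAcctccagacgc
Yars, chr4:129189895-129189924, plus strand: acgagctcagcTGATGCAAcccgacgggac
Tars, chr15:11399655-11399684, minus strand: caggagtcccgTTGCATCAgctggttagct

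The element TGATGCAA or its complement was the commonest form among them, and Asns and Gars held TGATGAAA, while Trib3 held TGATGTAA. The element began 193 bases before the start in Chac1 and 23 bases before it in Asns. These 2 genes are shown at full length because both fell in the values below, Chac1 from 2 h and Asns from 4 h of both inhibitors. Chac1 encodes a glutathione-degrading enzyme and Asns encodes asparagine synthetase. Their 250 bases before the start read as follows.
Chac1, chr2:119350992-119351241, plus strand: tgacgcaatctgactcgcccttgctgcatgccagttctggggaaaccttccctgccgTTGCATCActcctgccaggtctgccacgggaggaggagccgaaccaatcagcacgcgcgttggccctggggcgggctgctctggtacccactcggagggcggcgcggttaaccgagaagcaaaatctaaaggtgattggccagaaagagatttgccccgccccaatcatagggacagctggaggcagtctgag
Asns, chr6:7693210-7693459, minus strand: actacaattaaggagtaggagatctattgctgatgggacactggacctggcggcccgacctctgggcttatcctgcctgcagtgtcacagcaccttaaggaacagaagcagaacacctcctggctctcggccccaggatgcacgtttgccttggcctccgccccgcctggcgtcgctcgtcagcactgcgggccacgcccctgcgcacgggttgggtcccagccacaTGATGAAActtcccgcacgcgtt

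With RNA polymerase I inhibited, the set did not rise together. Most synthesis enzymes, the transporter Slc7a3 and 11 of 12 tRNA synthetases fell by 8 h of BMH-21, as did Atf4 mRNA and the ATF4 target Chac1. Atf5, Cebpb, Ddit3, Trib3 and the cysteinyl-tRNA synthetase Cars rose. Against control, 34 of the 35 genes changed in at least 1 of the 6 comparisons, 6 only upward, 26 only downward and 2 (Cebpg and Stc2) in both directions. The exception was Slc7a1, and after centring all 35 changed in at least 1. Atf4, Atf5 and Chac1 changed in all 6. The matching shares of all genes over the 6 comparisons were not computed. At 8 h of BMH-21 alone 24.5% of all genes rose and 56.9% fell, so a change in at least 1 comparison does not set these genes apart.

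Counts of changed members are read against all genes tested. After 2 h of BMH-21, 2 of the 35 rose and 4 fell, while 8.48% of all genes rose and 11.2% fell. After centring these were 5 and 8 members, against 18.6% and 17.5% of all genes. At 4 h of BMH-21, 5 rose and 17 fell (48.6% of the set), against 22.1% and 44.9% of all genes, so the share falling was close to the background. Centring gave 7 and 17 members, against 32.2% and 41.5%.

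At 8 h of BMH-21, 5 rose and 26 fell, which is 74.3% of the set falling against 56.9% of all genes, while 24.5% of all genes rose. Centring gave 8 rising and again 26 falling, against 33.3% and 51.3%. The median log2 difference of the 35 genes was -0.76, and that of all genes was -0.40.

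CX-5461 gave 2 rises and 8 falls at 2 h, against 7.45% and 20.5% of all genes, and 4 and 8 after centring, against 15.8% and 17.8%. At 4 h it gave 3 rises and 24 falls (68.6% falling), against 19.8% and 51.2% of all genes. After centring these were 9 and 24, against 28.5% and 45.7%. At 8 h it gave 8 rises and 15 falls, against 35.1% and 14.3% of all genes, and after centring 6 rises and 26 falls, against 29.3% and 44.7%. The split at 8 h of CX-5461 thus moved with the scaling, both in the set and in all genes. Leaving out 1 library moved the 2 h count of 10 to between 6 (without CX-5461 2 h replicate 2 or replicate 3) and 15 (without CX-5461 2 h replicate 1).

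**Figure D1:**
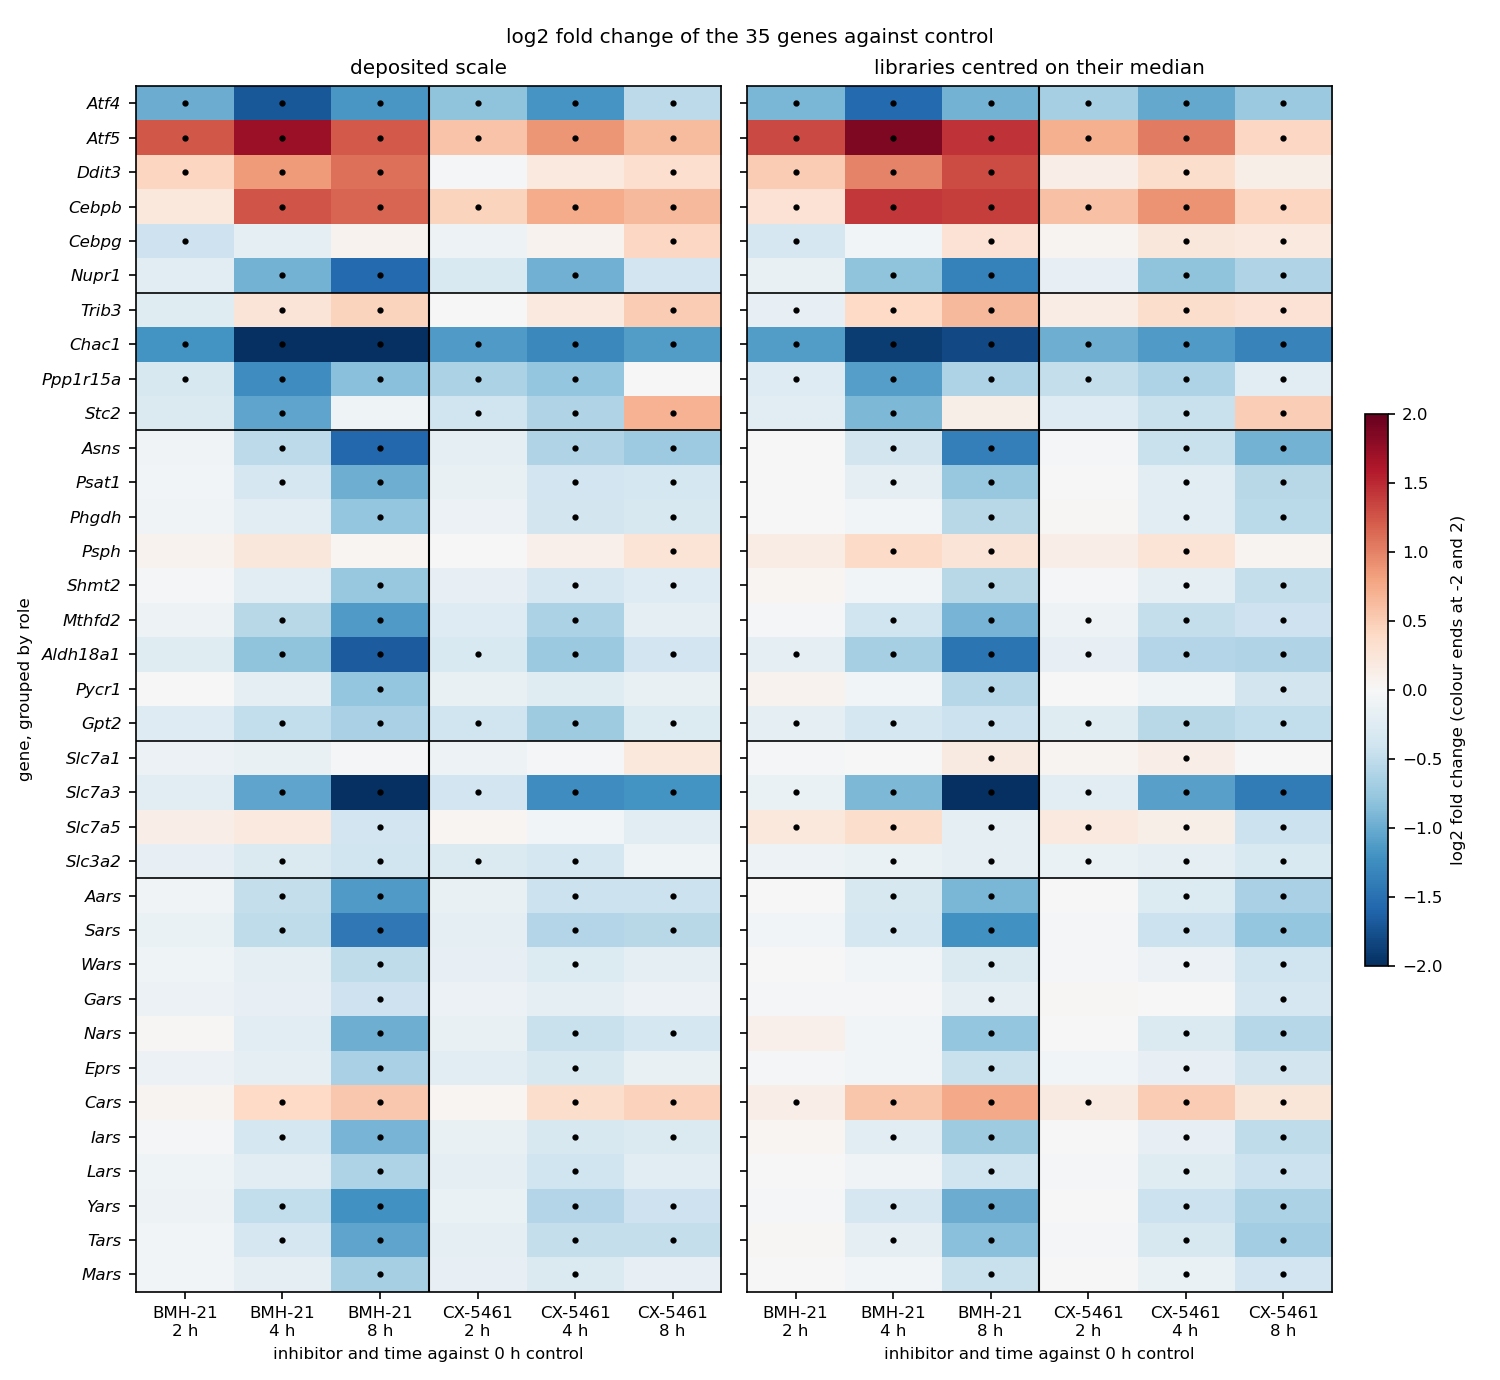
Log2 fold change of each of the 35 genes (rows, by role) against the 0 h control for each inhibitor and time (columns), as deposited on the left and after centring each library on the right. Colour ends at -2 and 2, and dots mark an adjusted p under 0.05. Atf5 and Cebpb form red rows and Atf4, Chac1 and Slc7a3 blue rows in both panels, and Cars is the red row among the blue synthetases at 4 and 8 h.

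Atf4, at chr15:80255184-80257541 in GRCm38, fell with both inhibitors. Its log2 levels in the 3 controls were 7.47, 7.53 and 7.26. They were 6.36, 6.49 and 6.43 at 2 h of BMH-21, 5.81, 5.58 and 5.77 at 4 h, and 6.32, 6.20 and 6.27 at 8 h. Every BMH-21 library was below every control, lowest at 4 h. CX-5461 gave 6.72, 6.49 and 6.64 at 2 h, 6.12, 6.40 and 6.19 at 4 h, and 6.92, 6.91 and 6.87 at 8 h, again below every control. At 4 h of BMH-21 the log2 difference was -1.70 (SE 0.11, adjusted p = 9.8e-31), a level 3.25-fold lower. At 4 h of CX-5461 it was -1.19. From 4 to 8 h Atf4 rose again while staying under control, by 0.54 in the BMH-21 libraries (0.61 after centring) and by 0.66 in the CX-5461 libraries (0.29 after centring).

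Atf5, a relative of ATF4 that is also induced in the response, moved the opposite way. Controls were at 4.41, 4.30 and 4.42. BMH-21 gave 5.49, 5.72 and 5.64 at 2 h, 6.16, 6.08 and 6.05 at 4 h, and 5.58, 5.50 and 5.73 at 8 h, all above control. CX-5461 gave 5.20, 4.86 and 4.78 at 2 h, 5.20, 5.36 and 5.21 at 4 h, and 5.03, 4.96 and 5.05 at 8 h, above control but below BMH-21 at every time. The rise was 3.29-fold at 4 h of BMH-21 (log2 1.72, SE 0.11, adjusted p = 8.7e-30) and 0.88 on the log2 scale at 4 h of CX-5461. Between 4 and 8 h Atf5 fell by 0.49 in BMH-21 and by 0.25 in CX-5461. The latter lost the call without any 1 of the 6 libraries compared (-0.19 to -0.27).

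Ddit3 encodes CHOP, a factor of prolonged stress. Controls were at 2.38, 2.58 and 2.50, and BMH-21 libraries at 2.93, 3.07 and 2.75 at 2 h, 3.44, 3.24 and 3.32 at 4 h, and 3.52, 3.32 and 3.91 at 8 h. No BMH-21 library overlapped the controls. The log2 difference at 8 h was 1.10 (SE 0.13, adjusted p = 1.5e-13). With CX-5461 the mean was 2.47 ± 0.10 (SD, n = 3) at 2 h, 2.69 ± 0.13 at 4 h and 2.82 ± 0.04 at 8 h. The difference of 0.33 at 8 h of CX-5461 passed the test as deposited (adjusted p = 0.025), was 0.12 after centring (adjusted p = 0.28) and was -0.16 with quantile normalization. It also lost the call without control replicate 1 (0.28), CX-5461 8 h replicate 1 (0.33) or CX-5461 8 h replicate 3 (0.31). Ddit3 and Mars share 68 exon bases on opposite strands, and the use of strand in counting is not given in the sources used here.

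Cebpb, a C/EBP factor that pairs with ATF4, stood at 3.54, 3.45 and 3.26 in controls. It was at 4.77, 4.59 and 4.68 at 4 h of BMH-21 and 4.64, 4.49 and 4.62 at 8 h, differences of 1.26 and 1.17. CX-5461 gave rises of 0.44, 0.74 and 0.65 at 2, 4 and 8 h. All libraries at 4 and 8 h of either inhibitor were above all controls. The Cebpb exons share 312 bases (20.7%) with Tmem189 on the opposite strand.

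Cebpg, which encodes a C/EBP factor that dimerizes with ATF4, was at 4.98 ± 0.13 in controls. It fell by 0.41 at 2 h of BMH-21 and rose by 0.41 at 8 h of CX-5461. Its difference at 8 h of BMH-21 was 0.08 (adjusted p = 0.54), and 0.29 after centring (adjusted p = 4.8e-05). Nupr1, a small stress-responsive chromatin protein gene with few reads (64 to 164 in any library), was at 1.64, 1.86 and 1.30 in controls. It was at 0.10, -0.18 and 0.19 at 8 h of BMH-21, a fall of 1.56 on the log2 scale. Its difference at 8 h of CX-5461 was -0.38 (adjusted p = 0.081), and it fell by 0.60 after centring (adjusted p = 0.00099).

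**Figure D2:**
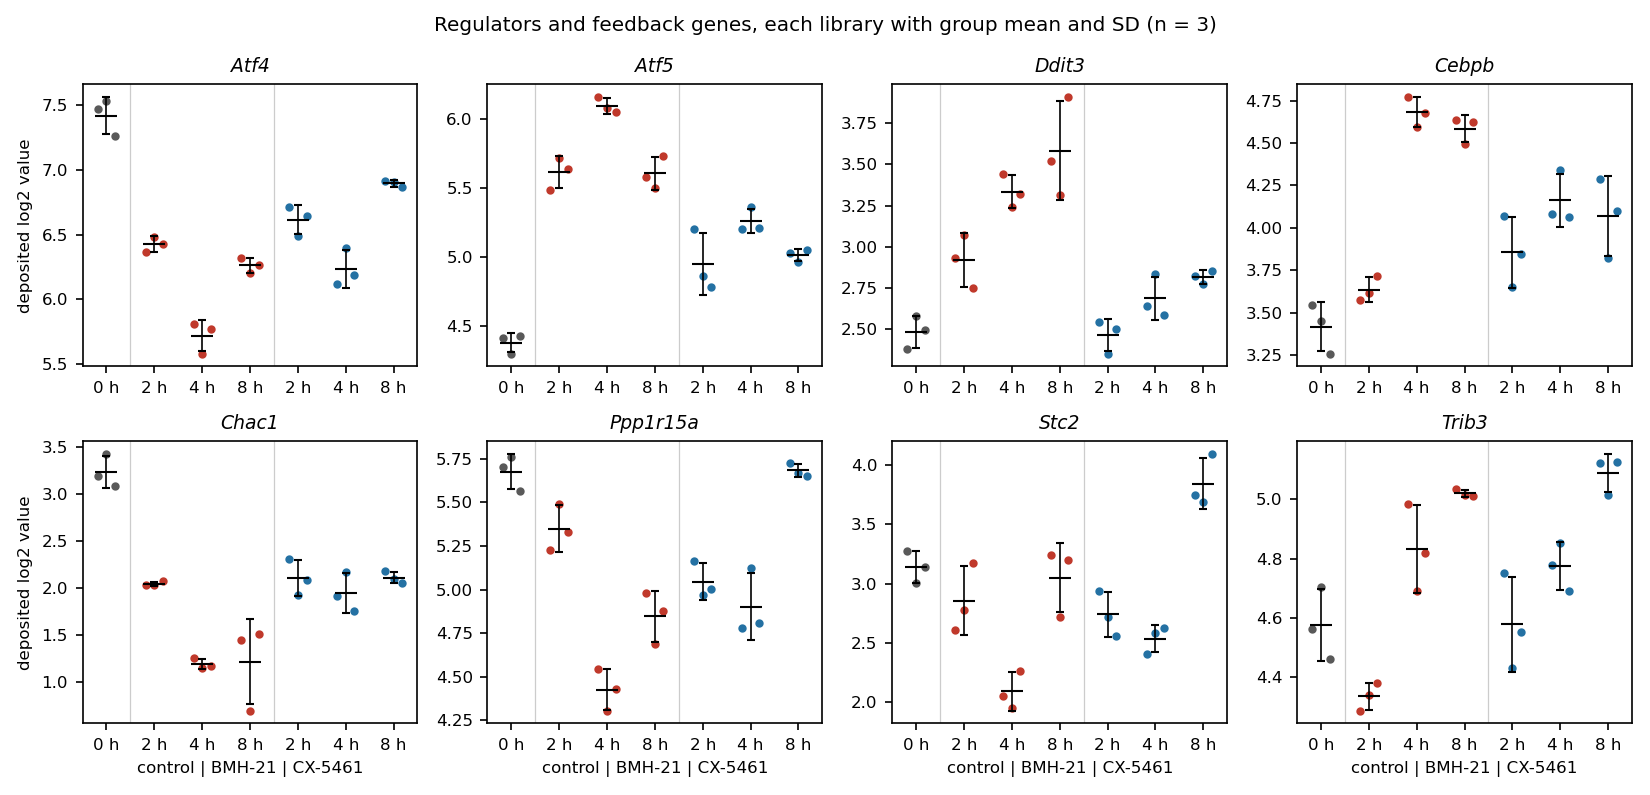
Deposited log2 level (vertical axis) of 8 regulators and feedback genes in each library, by hours of inhibitor (grey control, red BMH-21, blue CX-5461); bars are the mean and SD of 3 replicates. Atf4 and Chac1 lie below control in all treated libraries and Atf5 above, and Stc2 lies below control at 4 h and above it at 8 h of CX-5461.

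Chac1 was the effector with the largest falls. Controls were at 3.19, 3.42 and 3.09. BMH-21 gave 2.02, 2.03 and 2.07 at 2 h, 1.25, 1.14 and 1.17 at 4 h, and 1.44, 0.69 and 1.51 at 8 h. CX-5461 gave 2.31, 1.93 and 2.08 at 2 h, 1.91, 2.17 and 1.75 at 4 h, and 2.18, 2.10 and 2.05 at 8 h. All 18 treated libraries were below all 3 controls. The level was 4.13-fold lower at 4 h of BMH-21 (log2 -2.05, SE 0.15, adjusted p = 1.1e-24) and 4.06-fold lower at 8 h, against 2.18-fold lower at 8 h of CX-5461. These values rest on 111 to 487 reads per library.

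Ppp1r15a encodes GADD34, the phosphatase subunit that reverses eIF2 phosphorylation. Controls were at 5.70, 5.76 and 5.57, and 4 h BMH-21 libraries at 4.54, 4.31 and 4.43, a fall of 1.25. At 8 h the BMH-21 libraries were at 4.98, 4.69 and 4.87 and the CX-5461 libraries at 5.73, 5.67 and 5.65. The CX-5461 values at 8 h lay within the control range, with a difference of 0.01 as deposited (adjusted p = 0.97) and a fall of 0.21 after centring (adjusted p = 0.00015).

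Stc2, a secreted glycoprotein gene, stood at 3.27, 3.01 and 3.14 in controls. It was at 2.06, 1.95 and 2.27 at 4 h of BMH-21, at 2.41, 2.58 and 2.62 at 4 h of CX-5461, and at 3.75, 3.69 and 4.09 at 8 h of CX-5461. It thus fell at 4 h with both (by 1.05 and 0.60) and rose by 0.70 at 8 h of CX-5461. The BMH-21 libraries at 8 h were at 3.05 ± 0.29, with a difference of -0.09 (adjusted p = 0.54). Trib3, a pseudokinase that restrains ATF4, rose by 0.44 at 8 h of BMH-21 and by 0.51 at 8 h of CX-5461. Its rise of 0.26 at 4 h of BMH-21 lost the call without BMH-21 4 h replicate 1, BMH-21 4 h replicate 3, control replicate 1 or control replicate 3 (0.18, 0.26, 0.25 and 0.20). At 2 h of BMH-21 all Trib3 libraries were below all controls. The difference was -0.24 (adjusted p = 0.12), and Trib3 fell by 0.16 after centring (adjusted p = 0.044). That centred call was lost without BMH-21 2 h replicate 2 or 3 (-0.11 and -0.18) or control replicate 2 or 3 (-0.13 and -0.17).

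Of the enzymes of amino acid and one-carbon synthesis, 8 of 9 fell by 8 h of BMH-21 (88.9%, against 56.9% of all genes), with a median log2 difference of -0.78 as deposited and -0.57 after centring. At 2 h of BMH-21 none changed as deposited and 2 fell after centring (Aldh18a1 and Gpt2). At 4 h 5 of 9 fell (55.6%), which was not far from the 44.9% of all genes. CX-5461 lowered 2, 7 and 6 of the 9 at the 3 times, against 20.5%, 51.2% and 14.3% of all genes, and 8 at 8 h after centring, against 44.7%. The 2 at 2 h, Aldh18a1 and Gpt2, both lost the call without CX-5461 2 h replicate 2 (-0.28 and -0.34) or replicate 3 (-0.25 and -0.33), and Aldh18a1 also without control replicate 1 (-0.27) or control replicate 2 (-0.31).

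Asns was at 7.55, 7.62 and 7.31 in controls and at 7.36, 7.51 and 7.38 at 2 h of BMH-21, which overlapped. It was at 7.06, 6.89 and 6.97 at 4 h and at 5.98, 5.87 and 5.91 at 8 h, below every control. CX-5461 gave 6.77, 7.07 and 6.85 at 4 h and 6.81, 6.74 and 6.75 at 8 h. The fall at 8 h was 2.98-fold with BMH-21 (log2 -1.57, SE 0.11, adjusted p = 1.7e-28) and 1.65-fold with CX-5461 (log2 -0.73). Asns also fell by 1.05 between 4 and 8 h of BMH-21.

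Aldh18a1 encodes the first committed enzyme of proline and ornithine synthesis from glutamate. Its controls were at 5.99, 5.91 and 5.81. The BMH-21 libraries were at 4.34, 4.00 and 4.37 at 8 h. The CX-5461 libraries of that time were at 5.51, 5.53 and 5.52, with no overlap between any of these groups. The level was 3.18-fold lower with BMH-21 (log2 -1.67, SE 0.11) and 1.31-fold lower with CX-5461 (log2 -0.39, and -0.60 after centring). Pycr1, which completes proline synthesis in mitochondria, fell by 0.78 at 8 h of BMH-21. With CX-5461 its difference was -0.15 (adjusted p = 0.33), and it fell by 0.36 after centring.

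The serine pathway has 3 enzymes, and they did not move alike at 8 h of BMH-21. Phgdh, the entry step, fell by 0.77 and Psat1, the transaminase, by 0.97, while the phosphatase Psph, the last step, was at 4.92 ± 0.04 against 4.88 ± 0.15 in controls (difference 0.04, adjusted p = 0.73). After centring the Psph difference was 0.26 (adjusted p = 0.00069), so Psph was the 1 member of the 9 that rose there. Psph shares 452 exon bases (10.4%) with Cct6a on the opposite strand. Downstream of serine, Shmt2 and Mthfd2 of mitochondrial one-carbon metabolism fell by 0.76 and 1.14. Gpt2, which makes alanine in mitochondria, fell by 0.65.

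With CX-5461 at 8 h, Phgdh fell by 0.33, Psat1 by 0.34, Shmt2 by 0.27 and Gpt2 by 0.28. After centring these falls were 0.54, 0.56, 0.48 and 0.49. Psph rose by 0.27 as deposited (adjusted p = 0.037) but differed by 0.06 after centring (adjusted p = 0.43), and it lost the call without control replicate 2 (0.29), control replicate 3 (0.19), CX-5461 8 h replicate 1 (0.24) or CX-5461 8 h replicate 3 (0.23). Without control replicate 2 the calls of Phgdh (-0.27), Shmt2 (-0.25) and Gpt2 (-0.23) were lost. Without control replicate 1 or CX-5461 8 h replicate 2 the calls of Shmt2 (-0.23 and -0.24) and Gpt2 (-0.25 and -0.27) were lost, as was that of Shmt2 without CX-5461 8 h replicate 1 (-0.27) and that of Gpt2 without CX-5461 8 h replicate 3 (-0.26). The Mthfd2 difference there was -0.19 (adjusted p = 0.13), and Mthfd2 fell by 0.41 after centring. At 4 h of CX-5461, Mthfd2 had fallen by 0.64 and Gpt2 by 0.71. The fall of Shmt2 by 0.33 at that time turned to 0.03 with quantile normalization.

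Slc7a3, at chrX:101079210-101086020 in GRCm38, encodes the cationic amino acid transporter CAT3 and had the largest change of the 35 genes. Controls were at 7.96, 8.04 and 7.77. BMH-21 gave 7.60, 7.85 and 7.71 at 2 h, 7.05, 6.80 and 6.78 at 4 h, and 4.65, 4.45 and 4.57 at 8 h. The 2 h libraries overlapped the controls and the later ones did not. CX-5461 gave 7.66, 7.45 and 7.54 at 2 h, 6.58, 6.83 and 6.62 at 4 h, and 6.80, 6.64 and 6.77 at 8 h, so its 4 h and 8 h libraries overlapped as deposited. Between these times the difference was 0.06 (adjusted p = 0.64), while after centring Slc7a3 fell by 0.32 (adjusted p = 1.8e-07). The 8 h level was 10.3-fold lower with BMH-21 (log2 -3.37, SE 0.11, adjusted p = 1.6e-59) and 2.28-fold lower with CX-5461 (log2 -1.19, SE 0.11, adjusted p = 3e-19). Reads fell from 10368 to 11973 per control library to 1488 to 1887 at 8 h of BMH-21.

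The other transporters moved less. Slc7a1, which encodes CAT1, another carrier of arginine and lysine, was at 6.13 ± 0.09 in controls and 6.11 ± 0.25 at 8 h of BMH-21. Its difference was -0.03 (adjusted p = 0.82) as deposited and 0.18 (adjusted p = 0.0028) after centring. Slc7a5 and Slc3a2 encode the light and heavy chains of the large neutral amino acid exchanger. Both fell at 8 h of BMH-21, by 0.39 and 0.40, and by 0.18 each after centring, but they missed the test with median-ratio factors (-0.03 and -0.04) and were 0.21 and 0.18 higher with quantile normalization. Slc7a5 was 0.35 higher after centring at 4 h of BMH-21, where the deposited difference was 0.20 (adjusted p = 0.082).

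The tRNA synthetases charge tRNAs with their amino acids. At 2 h none of the 12 changed with either inhibitor as deposited, and after centring Cars alone rose. The rises were 0.13 for BMH-21 and 0.19 for CX-5461, and the former lost the call without BMH-21 2 h replicate 1 (0.10), control replicate 1 (0.11) or control replicate 3 (0.11). At 4 h, 5 of 12 fell with BMH-21 (Aars, Sars, Iars, Yars and Tars), a share of 41.7% that did not exceed the 44.9% of all genes. At 4 h of CX-5461, 10 fell (83.3%, against 51.2% of all genes), although Eprs, Iars, Mars and Wars were higher with quantile normalization (0.06, 0.03, 0.07 and 0.07). Of these 10, Iars lost the call without CX-5461 4 h replicate 1 (-0.23), Mars without control replicate 2 (-0.24) or CX-5461 4 h replicate 3 (-0.26), and Wars without control replicate 1 (-0.26), control replicate 2 (-0.23), CX-5461 4 h replicate 1 (-0.23) or CX-5461 4 h replicate 3 (-0.25). By 8 h of BMH-21, 11 fell (91.7%) on the deposited and the centred scale, against 56.9% and 51.3% of all genes, although Eprs, Gars, Lars and Wars were higher with quantile normalization (0.10, 0.27, 0.04 and 0.01). By 8 h of CX-5461, 6 fell as deposited and 11 after centring, against 14.3% and 44.7% of all genes. The 11 falls at 8 h of BMH-21 ranged from 0.41 in Gars to 1.43 in Sars.

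Sars, the seryl-tRNA synthetase, was at 8.13, 8.18 and 7.93 in controls. It was at 7.69, 7.46 and 7.59 at 4 h and 6.69, 6.58 and 6.69 at 8 h of BMH-21, and at 7.56, 7.52 and 7.51 at 8 h of CX-5461. Each of these groups lay below the controls. The 8 h level was 2.69-fold lower with BMH-21 (log2 -1.43, SE 0.10, adjusted p = 7.9e-26) and 1.47-fold lower with CX-5461.

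Yars, for tyrosine, had controls at 7.68, 7.69 and 7.44. At 8 h it was at 6.44, 6.36 and 6.40 in BMH-21, a fall of 1.21, and at 7.25, 7.17 and 7.16 in CX-5461, a fall of 0.41. Aars, for alanine, fell by 1.13 and 0.43, and Tars, for threonine, by 1.05 and 0.48. The Aars exons share 1326 bases (14.3%) with Exosc6 on the same strand, which no use of strand separates.

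Nars, for asparagine, fell by 0.98 at 8 h of BMH-21 and Iars, for isoleucine, by 0.92, and both fell at 8 h of CX-5461 (by 0.36 and 0.29, and by 0.57 and 0.50 after centring). The deposited call of Iars at 8 h of CX-5461 was lost without control replicate 1 (-0.27), control replicate 2 (-0.26), CX-5461 8 h replicate 2 (-0.28) or CX-5461 8 h replicate 3 (-0.28). Mars, for methionine, fell by 0.66 and Eprs, the bifunctional enzyme for glutamate and proline, by 0.65 at 8 h of BMH-21. Lars, for leucine, fell by 0.61 and Wars, for tryptophan, by 0.50. For Mars, Eprs, Lars and Wars the deposited differences at 8 h of CX-5461 were -0.17, -0.15, -0.21 and -0.18, with adjusted p from 0.076 to 0.22, and each fell after centring (by 0.39, 0.37, 0.43 and 0.39). Eprs with quantile normalization was 0.07 higher.

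Gars, for glycine, had controls at 8.65, 8.70 and 8.39 and, at 8 h, BMH-21 libraries at 8.22, 8.09 and 8.21 and CX-5461 libraries at 8.49, 8.45 and 8.44. The BMH-21 libraries lay below all controls and the CX-5461 libraries within their range. The difference at 8 h of CX-5461 was -0.12 (adjusted p = 0.33), and Gars fell by 0.34 there after centring (adjusted p = 1.1e-07). Gars fell by 0.41 at 8 h of BMH-21 and by 0.20 after centring, but missed the test with median-ratio factors (-0.05) and was 0.27 higher with quantile normalization.

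Cars, the cysteinyl-tRNA synthetase, at chr7:143557230-143600090 in GRCm38, was the synthetase that rose. Controls were at 6.86, 6.95 and 6.69. BMH-21 gave 6.82, 6.97 and 6.85 at 2 h, 7.32, 7.17 and 7.21 at 4 h, and 7.37, 7.28 and 7.46 at 8 h. CX-5461 gave 7.04, 6.74 and 6.82 at 2 h, 7.04, 7.35 and 7.14 at 4 h, and 7.32, 7.24 and 7.32 at 8 h. All 12 libraries at 4 and 8 h were above all controls. The rise at 8 h was 1.45-fold with BMH-21 (log2 0.54, SE 0.11, adjusted p = 2.1e-06) and 1.38-fold with CX-5461 (log2 0.46, adjusted p = 9.5e-05), and 0.75 and 0.25 on the log2 scale after centring.

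**Figure D3:**
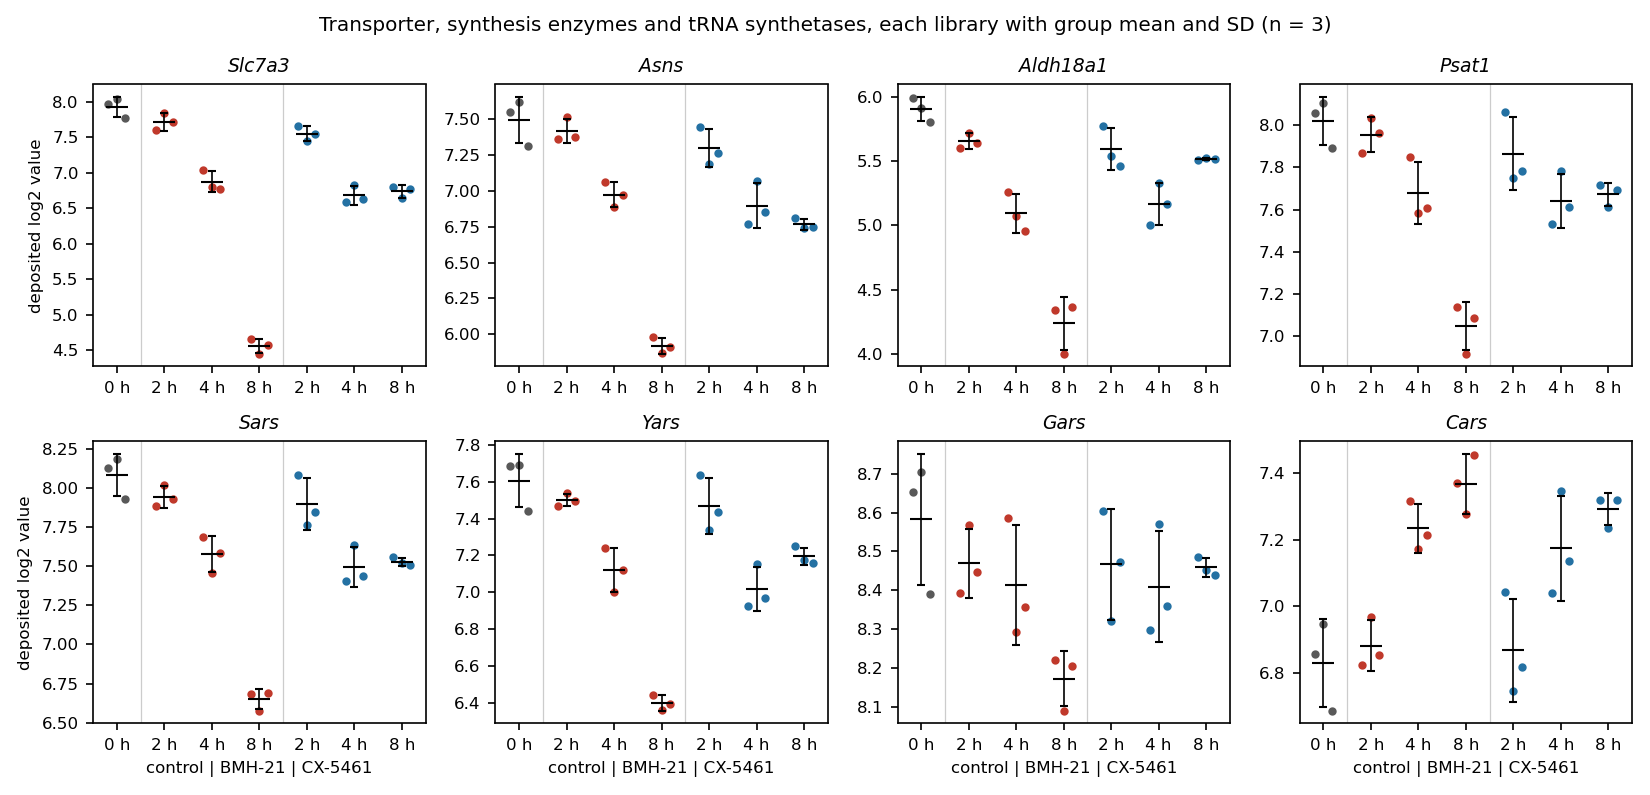
Deposited log2 level (vertical axis) of 8 effector genes in each library, by hours of inhibitor (grey control, red BMH-21, blue CX-5461); bars are the mean and SD of 3 replicates. Slc7a3, Asns, Aldh18a1, Psat1, Sars and Yars are lowest at 8 h of BMH-21, and Cars is above control at 4 and 8 h of both inhibitors.

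The inhibitors were compared directly at matched dose and time, which leaves the shared controls out. At 2 h, Atf5 and Ddit3 were higher with BMH-21 (0.67 and 0.45) and no member was lower, while 2.47% of all genes were higher and 1.52% lower. After centring 3 were higher and 4 lower, against 7.83% and 7.58%. Ddit3 lost the call at 2 h without BMH-21 2 h replicate 2 (0.38), CX-5461 2 h replicate 2 (0.40) or CX-5461 2 h replicate 3 (0.47). At 4 h, Atf5, Ddit3 and Cebpb were higher with BMH-21 (0.84, 0.65 and 0.52) and Atf4, Chac1, Ppp1r15a and Stc2 lower (-0.51, -0.76, -0.48 and -0.45). Of all genes 9.35% were higher and 8.49% lower at 4 h. The Stc2 call was lost without BMH-21 4 h replicate 2 (-0.38) or CX-5461 4 h replicate 3 (-0.40). Centring gave 13 and 6 members, against 27.4% and 18.5%.

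At 8 h, 3 members were higher and 27 lower with BMH-21 than with CX-5461, against 12.0% and 67.2% of all genes. After centring 11 were higher and 17 lower, against 31.1% and 40.6%. Of the 3 higher and the 27 lower, all 3 and 17 held on both scales. Atf5, Ddit3 and Cebpb were the 3, with differences of 0.59, 0.77 and 0.51 (1.02, 1.19 and 0.94 after centring). Slc7a3 was 4.53-fold lower with BMH-21 (log2 -2.18, SE 0.11, adjusted p = 5.6e-39), Aldh18a1 2.43-fold lower and Asns 1.80-fold lower. Mthfd2 differed by -0.95, Chac1 by -0.90, Sars by -0.88 and Nupr1 by -1.18, each lower on both scales. The centred call of Pycr1 was lost without replicate 1 or 3 of either inhibitor at 8 h (-0.16 to -0.19). That of Stc2 was lost without BMH-21 8 h replicate 2 (-0.27) or CX-5461 8 h replicate 3 (-0.24).

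For Gars, Wars and Slc3a2 the direction at 8 h depended on the scaling, since they were lower with BMH-21 as deposited (-0.29, -0.33 and -0.30) and higher after centring (0.14, 0.10 and 0.12). Psph, Slc7a1, Slc7a5 and Trib3 did not pass the test as deposited (-0.23, -0.23, -0.18 and -0.07) and were higher after centring (0.20, 0.19, 0.24 and 0.36). The centred call of Slc3a2 was lost without BMH-21 8 h replicate 2 (0.08) and that of Psph without CX-5461 8 h replicate 2 (0.15). Cars differed by 0.08 as deposited (adjusted p = 0.51) and by 0.50 after centring (adjusted p = 2.4e-10). The median of all genes moved from -0.48 to -0.06 with centring, so a member near those medians is not set apart from the bulk of genes.

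**Figure D4:**
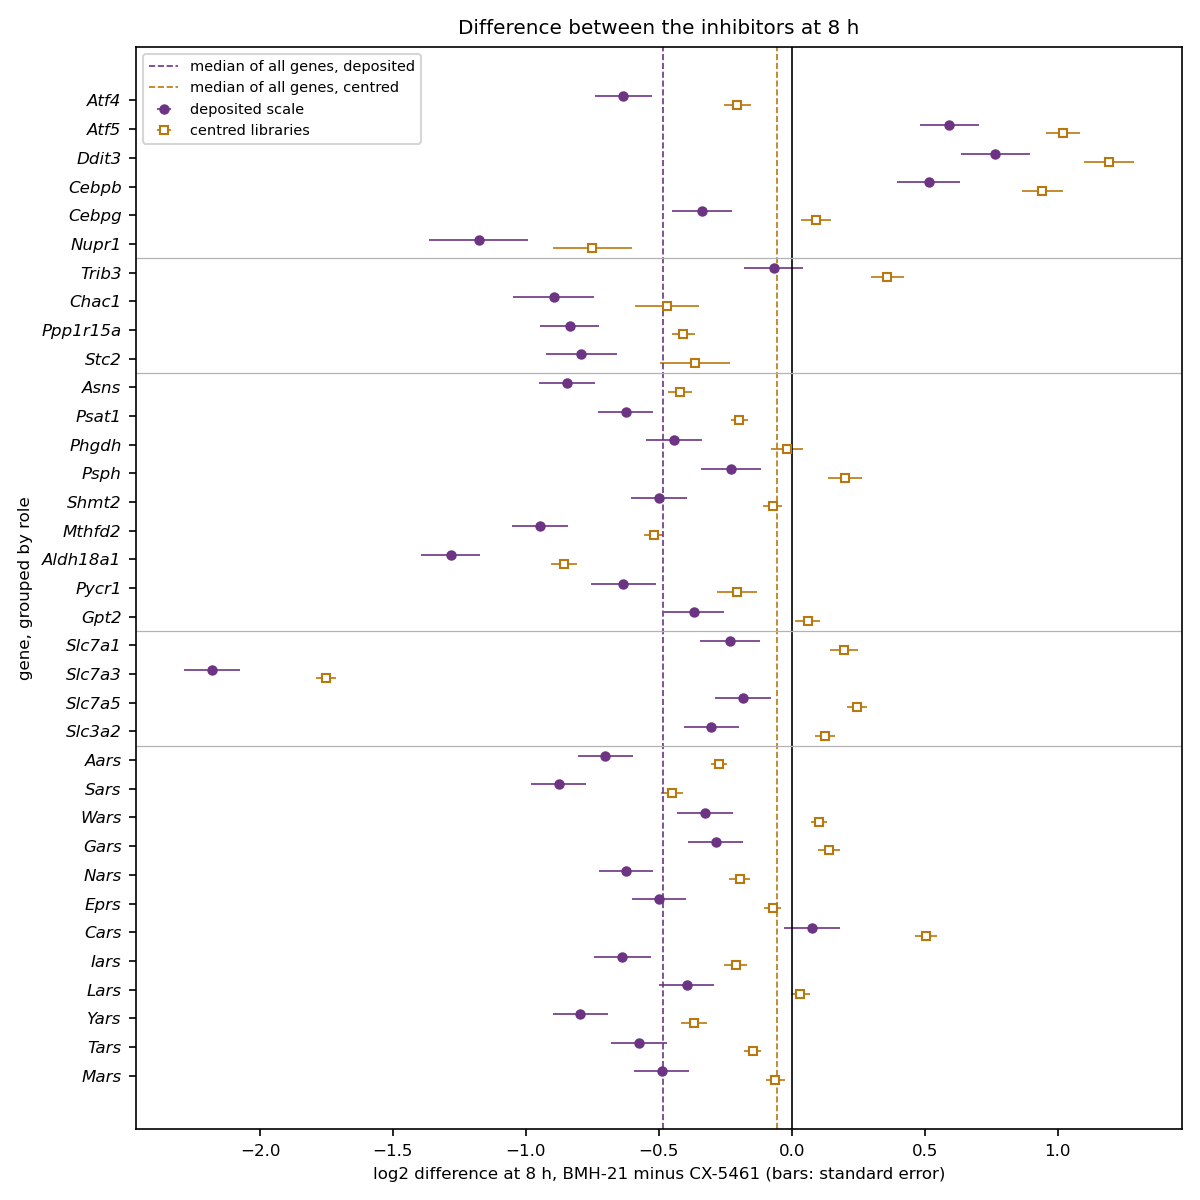
Log2 difference between BMH-21 and CX-5461 at 8 h (horizontal axis) for the 35 genes by role, as deposited (filled) and after centring (open), with standard errors as bars; dashed lines are the medians of all genes tested. Slc7a3 lies farthest to the left at -2.18, and Atf5, Ddit3 and Cebpb lie to the right of 0 on both scales.

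Between 4 and 8 h the set went on falling with BMH-21. Of the 35, 4 rose and 22 fell, against 18.6% and 37.8% of all genes, and after centring 8 and 22, against 28.3% and 42.2%. The falls were 2.32 in Slc7a3, 1.05 in Asns, 0.93 in Sars and 0.86 in Aldh18a1, and 11 of 12 synthetases fell. The 4 rises were in Stc2 (0.96), Atf4 (0.54), Ppp1r15a (0.42) and Cebpg (0.28). Among the synthetases Eprs, Gars and Lars fell by 0.45, 0.24 and 0.39 but were 0.02, 0.19 and 0.01 higher with quantile normalization. Leaving out 1 library ended the calls of Cebpg (without BMH-21 4 h replicate 2 or 3, both 0.23, or BMH-21 8 h replicate 1 or 3, both 0.25), Gars (without BMH-21 4 h replicate 1, -0.15, BMH-21 8 h replicate 2, -0.20, or BMH-21 8 h replicate 3, -0.26) and Wars (without BMH-21 4 h replicate 1, -0.22, or BMH-21 8 h replicate 2, -0.23).

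With CX-5461, 10 members rose and 1 fell between 4 and 8 h, against 58.8% and 4.85% of all genes. After centring 3 rose and 25 fell, against 25.8% and 32.0%. The members with 1 direction on both scales were Stc2 (1.30 and 0.93 after centring), Ppp1r15a (0.78 and 0.41), Atf4 (0.66 and 0.29) and Atf5 (-0.25 and -0.62). No synthetase passed the test as deposited, with differences from -0.01 to 0.18, and all 12 fell after centring.

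Whether the difference between the inhibitors itself changed from 2 to 8 h was tested with an interaction term. It was more positive at 8 h for 1 member and more negative for 25, against 9.23% and 66.1% of all genes. After centring these were 9 and 15, against 25.0% and 36.9%. The 15 negative members kept that call on both scales, and Cebpb was the positive one on both.

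Genes of the same pathway outside the set were read from lists of related genes. Of the 8 other cytosolic synthetases, 8 of 8 fell at 8 h of BMH-21 (median -0.97, and -0.76 after centring), against 56.9% of all genes. At 8 h of CX-5461 6 of the 8 fell as deposited (median -0.29), against 14.3% of all genes, and 8 after centring (median -0.50), against 44.7%. The largest falls at 8 h of BMH-21 were 1.12 in Farsb, 1.09 in Rars and 1.02 in Dars, for phenylalanine, arginine and aspartate. The 3 scaffolds of the multisynthetase complex fell too, Eef1e1 by 1.29, Aimp1 by 0.99 and Aimp2 by 0.80. Among mitochondrial synthetases 11 of 17 fell and 1 rose at 8 h of BMH-21 (median -0.73), a share falling (64.7%) close to the 56.9% of all genes, with Yars2 at -1.45, Lars2 at -1.33 and Tars2 at -1.03. With 8 h of CX-5461, 3 of the 17 fell and 4 rose as deposited, and 11 fell and 2 rose after centring. The 17.6% falling as deposited was close to the 14.3% of all genes, and the 64.7% after centring stood against 44.7%.

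Upstream, the kinases and the eIF2 machinery (15 genes) gave 2 rises and 11 falls (73.3%) at 8 h of BMH-21, with a median of -0.85, against 24.5% and 56.9% of all genes. After centring there were 3 rises and 11 falls, with a median of -0.64, against 33.3% and 51.3% of all genes and their median of -0.19. The largest falls were in Eif2s2 (-1.77), the beta subunit of eIF2, and in Eif2b3 (-1.48) and Eif2b4 (-1.26), subunits of its exchange factor. The 2 that rose as deposited were the kinase genes Eif2ak1 (0.96), which encodes the haem-regulated kinase, and Eif2ak3 (0.46), which encodes the endoplasmic reticulum kinase PERK. These 2 were chosen after their values were seen. Both also rose at 8 h of CX-5461 (0.31 and 0.68, and 0.10 and 0.47 after centring). mRNA levels do not show kinase activity.

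Other reported ATF4 targets (18 of 19 tested, Fgf21 being below the filter) gave 8 rises and 8 falls at 8 h of BMH-21 as deposited, with a median of -0.15, and 9 rises and 6 falls after centring, with a median of 0.07. Of all genes 24.5% rose and 56.9% fell as deposited, and 33.3% and 51.3% after centring. The largest changes were rises of 4.13 in Atf3, a stress-induced factor of the same family, 3.36 in Ddit4, an inhibitor of mTORC1, and 2.61 in Gdf15, a secreted stress cytokine. Each of the 3 also rose at 8 h of CX-5461, by 2.33, 2.96 and 1.68, and at 2 h of both inhibitors. With 8 h of CX-5461, 10 of the 18 rose and 3 fell as deposited, against 35.1% and 14.3% of all genes. The share falling (16.7%) was thus close to that of all genes. After centring 7 rose and 7 fell, against 29.3% and 44.7%.

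A list of 12 genes from other arms of the unfolded protein response, called the chaperone list here, held endoplasmic reticulum chaperones and other genes. Among the others were the regulators Xbp1, Atf6 and Ern1. Of the 12, 9 fell at 4 h of BMH-21 and 10 at 4 h of CX-5461 (75.0% and 83.3%, against 44.9% and 51.2% of all genes). Later, 7 fell and 1 rose at 8 h of BMH-21, a share falling (58.3%) like that of all genes (56.9%). With 8 h of CX-5461, 10 rose and 0 fell, against 35.1% and 14.3% of all genes. After centring 8 rose and 1 fell, against 29.3% and 44.7%. Manf fell by 0.90, Xbp1 by 0.76 and Pdia4 by 0.73 at 8 h of BMH-21. The same 3 rose at 8 h of CX-5461 by 0.58, 0.25 and 0.55 as deposited, and the Xbp1 difference was 0.03 after centring.

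**Figure D5:**
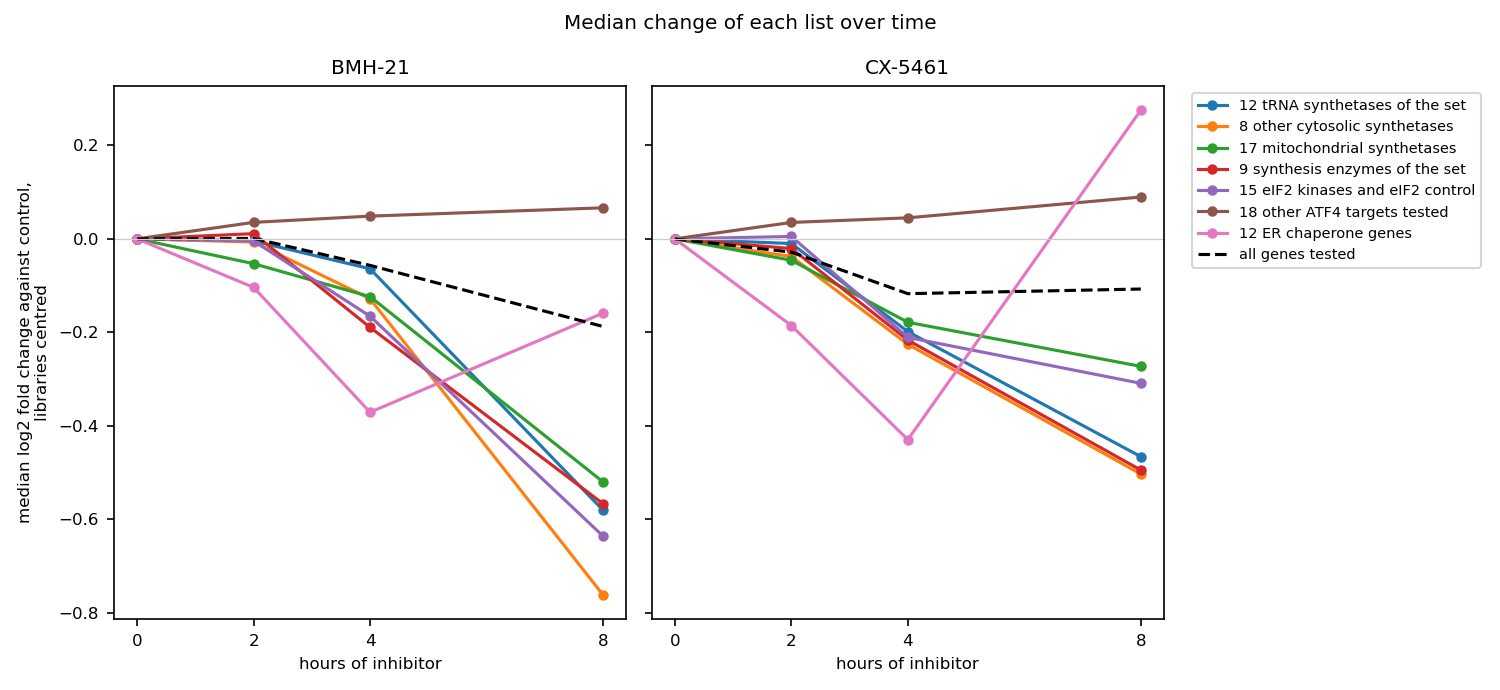
Median log2 fold change against the 0 h control after centring (vertical axis) over hours of inhibitor (horizontal axis) for 7 gene lists and for all genes tested (dashed), with BMH-21 on the left and CX-5461 on the right; the 0 h points are 0 by definition. The cytosolic and mitochondrial synthetases, the synthesis enzymes and the eIF2 genes end below the median of all genes at 8 h of both inhibitors. The chaperone list, which also holds the regulators Xbp1, Atf6 and Ern1, ends above it with CX-5461.

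The promoter matches were set beside the values as a description. At 8 h of BMH-21, 56.9% of all genes fell and 24.5% rose. The 10 genes with a match had a median of -1.09 there, with 9 falling and 1 (Trib3) rising. The 19 genes without one had a median of -0.65, with 12 falling and 3 (Atf5, Cebpb and Ddit3) rising. After centring the medians were -0.88 and -0.44. At 8 h of CX-5461 the deposited medians with and without a match were -0.40 and -0.15. At 2 h the order was the other way and the gap small, with BMH-21 medians of -0.09 and -0.12 and CX-5461 medians of -0.15 and -0.17. Match and role cannot be told apart here, since 5 of 8 synthetases with an entry held a match, against 1 of 6 transcription factors. Genes without an entry, Slc7a3 and Cars among them, are in neither group. Among the other lists the element was found in 8 of 15 other ATF4 targets (53.3%), also chosen as such by name, and in 1 of 12 eIF2 genes. The element was found in none of 5 other cytosolic synthetases, 14 mitochondrial synthetases and 10 genes of the chaperone list.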

How the data were processed

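The authors deposited 1 table of log2 values for 21 libraries of poly(A) RNA made with a directional kit, per the labels. The submitters' processing notes name Trim Galore 0.5.0, TopHat2 2.1.1, R 4.0.5, DESeq2 1.30.1, edgeR 3.32.1, limma 3.46.0 and the build mm10. The counting program and the origin of the scaling factors are not given in the sources used here. Each value equals the log2 of whole reads plus 0.5 over a scaled library size, to within 1.7e-08 reads, which gave the reads quoted. A fold of a low gene is thus slightly understated.

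The test was limma 3.58.1 in R 4.3.3, with 1 mean per group over all 21 libraries, a variance trend, and two-sided p-values adjusted by Benjamini-Hochberg over 14666 genes. The variance prior carried 111.5 degrees of freedom as deposited and 8.53 after centring, against 14 from replicates. The fit was tested on simulated data in which the spread was drawn separately for each gene. A scaling error shared by all genes of a library was not simulated, so that test does not bear on it. Each of 12 comparisons was refitted under the alternatives given in the closing part. The members, the role groups and the related lists were chosen with earlier results of these data known. All 35 members are named, and of each related list the 3 genes with the largest change at 8 h of BMH-21 among those passing the test there. Exon overlaps and gene positions came from GENCODE M21 (GRCm38) and promoters from RefSeq (GRCm38.p6). The promoter stretch of 1 gene with a match is not reported here.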

Additional observations from a re-analysis of the deposited data

Results flagged for a closer look

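One result met a rule for a closer look because an effect differed between groups: the difference between BMH-21 and CX-5461 was not the same at 8 h as at 2 h. By limma's interaction term 26 of the 35 genes passed the test, 1 more positive and 25 more negative at 8 h, against 9.23% and 66.1% of all genes. After centring it was 24 genes, 9 more positive and 15 more negative, against 25.0% and 36.9% of all genes, so the shares moving down were near those of all genes. The largest shift was in Slc7a3, at -2.35 as deposited and -1.85 after centring.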

How the results depend on the processing

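Changing the scaling moved results most. The other settings were other filters, offsets, variance models, voom weights and a fit of only the groups compared. Among the 345 member differences checked (335 with the stricter filter), none that passed the test in the main or the other fit turned direction under them. Turns of differences that passed in neither fit were not counted. For 8 h against 4 h, only members called in the same direction as deposited and after centring were checked. At 2 h of BMH-21 the 6 changed members became 13 with centring, median-ratio factors or quantile normalization and 12 with centring and the replicate block. The 2 members that differed between inhibitors at 2 h became 7 under each of these settings and 1 with no filter. At 4 h the 7 became 19 with centring and 16 under the others. For CX-5461 at 8 h against 4 h the 11 became 28, or 24 with quantile normalization. Leaving out 1 library gave 6 to 15 changed members at 2 h of CX-5461, 1 to 2 between inhibitors at 2 h and 7 to 14 for CX-5461 at 8 h against 4 h (7 without CX-5461 4 h replicate 1 or replicate 3). Every other count stayed within 1.5 times. No call changed direction when 1 library was left out.

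Directions that turned among the differences checked, where the main or the other fit passed the test, are listed by comparison. The 12 synthetases between 4 and 8 h of CX-5461 were not checked. Their differences were -0.01 to 0.18 as deposited and -0.38 to -0.19 after centring, so turns there are not listed. BMH-21 against CX-5461 at 8 h, with centring (also with the replicate block), median-ratio factors and quantile normalization in that order: Cebpg 0.090, 0.13 and 0.12; Gars 0.14, 0.19 and 0.18; Gpt2 0.059, 0.10 and 0.070; Lars 0.031, 0.076 and 0.10; Psph 0.20, 0.24 and 0.22; Slc3a2 0.12, 0.17 and 0.15; Slc7a1 0.19, 0.24 and 0.21; Slc7a5 0.24, 0.29 and 0.28; Trib3 0.36, 0.40 and 0.39; Wars 0.10, 0.15 and 0.13. There Phgdh was 0.028 with median-ratio factors and Eprs 0.029 with quantile normalization.

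In the same order, Slc7a1 at 8 h of BMH-21 was 0.18, 0.33 and 0.38, Slc7a1 at 4 h of CX-5461 was 0.14, 0.23 and 0.27, Slc7a5 at 4 h of CX-5461 was 0.11, 0.20 and 0.32, and Ppp1r15a at 8 h of CX-5461 was -0.21, -0.11 and -0.10. Psph at 2 h of CX-5461 was 0.17 with median-ratio factors. The other turns came with quantile normalization. At 8 h of BMH-21 these were Eprs 0.10, Gars 0.27, Lars 0.040, Slc3a2 0.18, Slc7a5 0.21 and Wars 0.012, and at 4 h Eprs 0.084 and Gars 0.085. For BMH-21 at 8 h against 4 h they were Eprs 0.020, Gars 0.19 and Lars 0.0051. At 4 h of CX-5461 they were Eprs 0.064, Gars 0.21, Iars 0.029, Mars 0.071, Shmt2 0.026, Slc3a2 0.010 and Wars 0.071, and at 8 h Ddit3 -0.16, Eprs 0.075 and Gars 0.088. Gars between inhibitors at 4 h was -0.13. The cause was not tested.

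The replicate numbers did not pair the libraries. Deviations of each library's centred values from its group mean, gene by gene, were correlated between libraries of different groups. For same-numbered libraries, 33 such correlations ran from -0.25 to 0.093. By the mean of these correlations, 4 of 21 libraries were closest to their own number. With the replicate block, 344 of 345 member differences stayed on their side of the threshold, and the call of Atf5 for CX-5461 at 8 h against 4 h (-0.25) was lost. The lowest depth was 46604397 reads, and Nupr1, with the fewest reads among the members, had the widest standard error (0.19).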
